A study of Mus musculus with 8 samples.

Results

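The 9 genes described here were chosen as markers of excitatory, glutamate-releasing neurons of the mouse cerebral cortex. Which cells of this tissue expressed them was not tested. They were taken as all probes whose symbol in the platform annotation was Slc17a7, Nrgn, Camk2a, Neurod2, Neurod6, Tbr1, Cux2, Rorb or Fezf2. The annotation gave 10 such probes of 23473 on the array, 2 for Camk2a and 1 for each other gene, and named 19321 genes in all. The 8 arrays were 1-colour oligonucleotide arrays with Cy5-labelled amplified RNA, 1 per mouse. The groups were 2 mice that drank water (day 0, the control), 3 with a day of trehalose intake and 3 with 10 days of it. Trehalose is a disaccharide of glucose, and the series asked what its intake does to the brain. All mice were male C57Bl/6J of 9 weeks, acclimatized for 1 week, fasted for 6 h and perfused before the brain was taken. Water mice were sampled at day 0 only, so trehalose and the time of sampling cannot be told apart. Mice were housed 3 to a cage, and no label assigns them to cages. The p-values measure the spread between these 8 mice, which may be partly that of cages or handling.

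Excitatory neurons load glutamate into synaptic vesicles, send axons to other cortical areas and to deeper brain regions, and are arranged in layers by birth order and target. Slc17a7 encodes the vesicular glutamate transporter VGLUT1 of cortical and hippocampal neurons, Nrgn the postsynaptic calmodulin-binding protein neurogranin, and Camk2a the alpha subunit of the calcium- and calmodulin-dependent kinase of the postsynaptic density. Neurod2 and Neurod6 are related basic helix-loop-helix transcription factors of maturing and adult projection neurons. Tbr1 is a T-box factor best known in layer 6, Fezf2 a zinc-finger factor that specifies the layer 5 neurons projecting below the cortex, Rorb an orphan nuclear receptor of layer 4, and Cux2 a homeobox factor of layers 2 to 4. In RNA of whole tissue, fewer cells of a type and less RNA per cell cannot be told apart.

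Upstream sequences are shown for Slc17a7 and Nrgn, the 2 genes with the lowest p at 10 days against control. Those of the 2 basic helix-loop-helix factors are shown too, as such factors bind E-boxes (CANNTG). No link between these sequences and the values below was tested. Each sequence is the 250 bases before the RefSeq transcription start in GRCm38.p6, read 5′ to 3′ along the gene, with every E-box in capitals.
Slc17a7, chr7:45163671-45163920, plus strand: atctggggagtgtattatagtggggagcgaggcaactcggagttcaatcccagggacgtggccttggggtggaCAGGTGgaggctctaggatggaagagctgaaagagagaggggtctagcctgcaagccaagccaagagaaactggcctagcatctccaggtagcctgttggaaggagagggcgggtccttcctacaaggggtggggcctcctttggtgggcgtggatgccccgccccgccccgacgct
Nrgn, chr9:37552746-37552995, minus strand: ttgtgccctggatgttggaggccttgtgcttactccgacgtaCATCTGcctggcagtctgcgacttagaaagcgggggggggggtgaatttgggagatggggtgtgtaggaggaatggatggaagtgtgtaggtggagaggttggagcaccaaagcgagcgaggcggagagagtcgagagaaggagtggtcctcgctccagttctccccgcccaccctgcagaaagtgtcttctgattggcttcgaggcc
Neurod2, chr11:98329646-98329895, minus strand: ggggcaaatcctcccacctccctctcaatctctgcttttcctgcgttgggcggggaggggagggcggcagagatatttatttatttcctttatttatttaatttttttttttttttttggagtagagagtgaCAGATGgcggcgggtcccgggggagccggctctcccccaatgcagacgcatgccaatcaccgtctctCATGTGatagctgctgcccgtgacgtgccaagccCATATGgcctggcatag
Neurod6, chr6:55681264-55681513, minus strand: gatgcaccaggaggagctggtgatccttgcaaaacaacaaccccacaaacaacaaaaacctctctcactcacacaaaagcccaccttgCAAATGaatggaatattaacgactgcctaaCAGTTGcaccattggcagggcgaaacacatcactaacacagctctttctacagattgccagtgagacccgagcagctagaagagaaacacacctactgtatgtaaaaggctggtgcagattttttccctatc
Slc17a7 and Nrgn held 1 E-box each, Neurod6 held 2 and Neurod2 held 3, and none overlapped another. Of the 32851 windows of this length in the RefSeq table, 66.2% held an E-box on either strand, since its letters are loose. The E-box form CAGATG, counted on both strands, stood in 14.4% of all windows and once each in those of Nrgn and Neurod2. The E-box form CAGCTG, in 13% of all windows, was found in none of the 4. These letter matches describe the windows and are not binding sites.

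All 10 probes lay above the limit of the blank spots (their mean plus 2 SD) on all 8 arrays. Each array had 86.3% to 92.1% of all probes above this limit, so passing it says little about the members. The median spot of an array was read at 2.45 to 2.87 times the blank mean. Nrgn was read at 71.3 to 87.7 times the blank mean, Slc17a7 at 19.9 to 27.2 times and the brighter Camk2a probe at 19.6 to 28.7 times. Neurod2, Tbr1, Neurod6, Fezf2 and Rorb lay between 4.38 and 11.8 times. Cux2, at 1.56 to 1.78 times, and the dimmer Camk2a probe, at 1.93 to 2.83 times, were close to the blanks. These are readings of separate probes and give no order of the genes' abundance. The offset of 50 added to the intensities compresses the log2 changes of dim probes, Cux2 and the dimmer Camk2a probe above all.

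How much of the brain the tissue held is unclear. The labels name the cortex and neocortex, whereas the series' design says that a whole left hemisphere was frozen. All 15 probes of the striatum list were above the blank limit on at least 2 arrays, as were 19 of the 20 of the thalamus list and all 8 each of the choroid plexus and hypothalamus lists. So were 21583 of all 23473 probes and all 9 of the cerebellum list, so these counts do not settle what was dissected. Among the brighter readings, Ttr, the transthyretin of choroid plexus, reached 845.3 to 1283 times the blank mean, and Avp, the hypothalamic vasopressin gene, 19.1 to 44.7 times. The 8 arrays had 86.3% to 92.1% of probes above the limit. An array stood apart in these lists. In trehalose 1 day replicate 2 the striatum probes lay on average 0.627 below their mean over the 8 arrays on the log2 scale and the thalamus probes 0.235 above it.

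**Figure D1:**
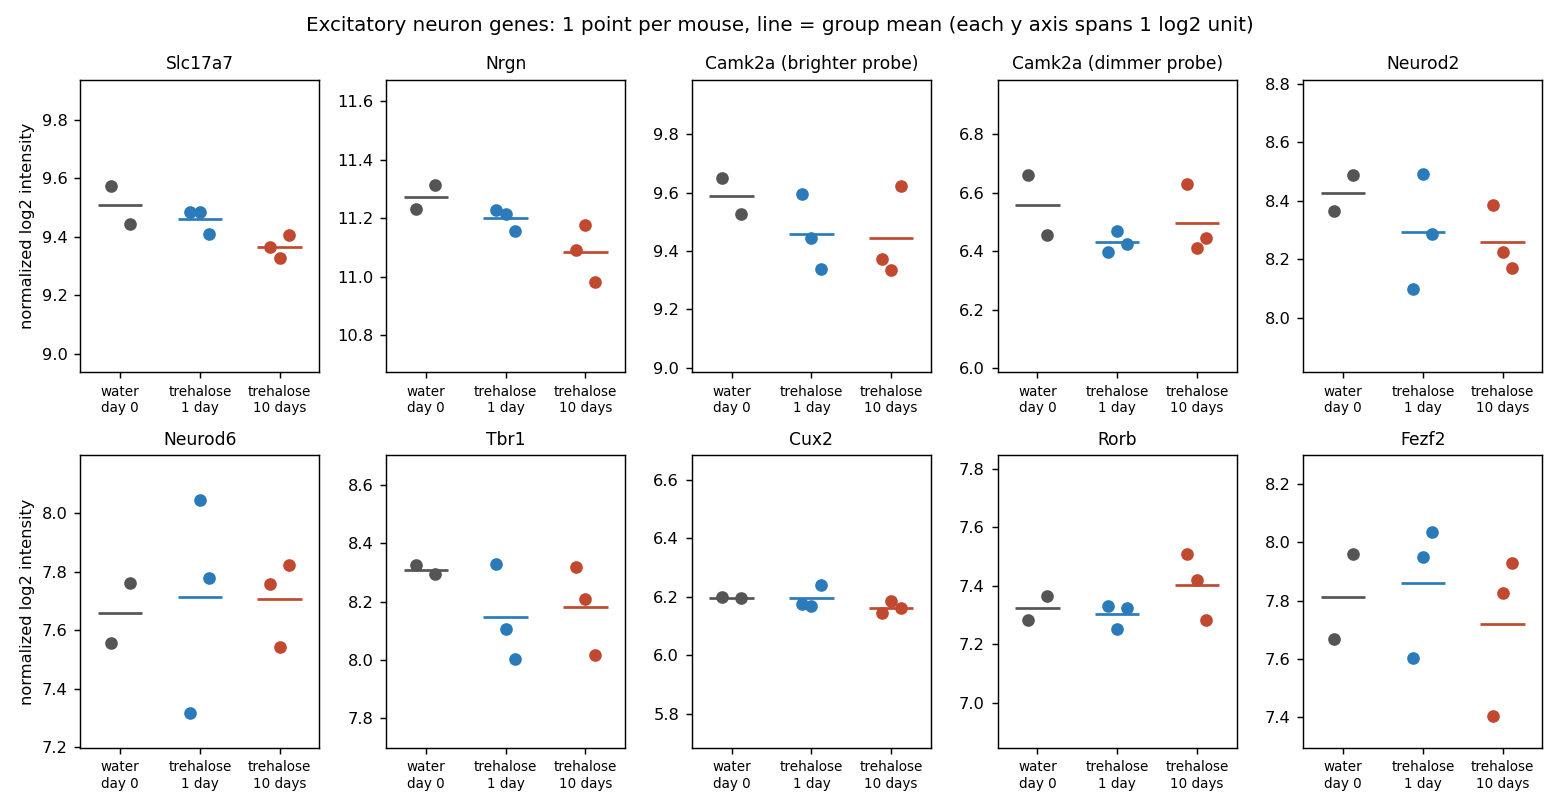
Normalized log2 intensity of the 10 probes, 1 point per mouse, for water at day 0 (2 mice), trehalose for 1 day (3) and trehalose for 10 days (3), with a line at each group mean and 1 log2 unit on every y axis. Slc17a7 at 10 days lies between 9.33 and 9.41, below both water mice, while Neurod6 at 1 day spreads from 7.32 to 8.05.

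Slc17a7 varied little between mice. Its log2 intensity was 9.57 and 9.44 in the 2 water mice, 9.48, 9.48 and 9.41 after 1 day of trehalose, and 9.36, 9.33 and 9.41 after 10 days. The 3 mice at 10 days lay below both water mice, whereas those at 1 day overlapped them. Against control the log2 change was -0.14 at 10 days (SE 0.05, 95% interval -0.26 to -0.025), or 9.45% lower, and -0.05 at 1 day (SE 0.05). By limma neither passed (adjusted p = 1 at both times). At 10 days the unadjusted limma p was 0.0236, which ranked 169 among 21583 probes. The size depended on the background and on 1 control: the change was -0.61 with the local background column subtracted and -0.08 without control replicate 1.

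Nrgn gave the lowest unadjusted p of the 10 probes at 10 days. It measured 11.23 and 11.31 in water mice, 11.23, 11.21 and 11.16 at 1 day, and 11.09, 11.18 and 10.98 at 10 days. Each trehalose group lay wholly below the water group, at 1 day by less than 0.01 between the nearest mice, so the separation at 1 day is slight. The log2 change against control was -0.19 at 10 days (SE 0.06, 95% interval -0.33 to -0.047), or 12.3% lower, with an unadjusted limma p of 0.0155 and adjusted p = 1. At 1 day it was -0.07 (SE 0.06). On the scanner values before correction, Nrgn read 87.7 and 80.8 times the blank mean in water mice, 84.4, 83.0 and 71.3 times at 1 day, and 78.6, 72.7 and 74.3 times at 10 days. On that scale 2 of the 1-day mice lay above control replicate 2, and the 10-day mice lay below both controls. With the local background column subtracted its changes turned to 0.22 at 1 day and 0.18 at 10 days (adjusted p = 0.8973 and 0.9946, where all settings gave 0.8973 to 1).

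Camk2a had 2 probes annotated to the same transcript, which are reported apart. The brighter one measured 9.65 and 9.53 in water mice, 9.59, 9.45 and 9.34 at 1 day, and 9.37, 9.34 and 9.62 at 10 days. The dimmer one measured 6.66 and 6.46 in water mice, 6.40, 6.47 and 6.42 at 1 day, and 6.63, 6.41 and 6.44 at 10 days. Both were highest in control replicate 1, and at 10 days they picked out different mice, replicate 3 for the brighter probe and replicate 1 for the dimmer. At 1 day against control both had a log2 change of -0.13, with SE 0.10 for the brighter and 0.08 for the dimmer, and at 10 days they had -0.14 and -0.06. With the blank mean subtracted instead of the offset, the dimmer probe stood at -0.31 and -0.15. None passed the limma test (adjusted p = 1 for each).

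Neurod2 and Neurod6 differed more between mice of 1 group than between groups. Neurod2 measured 8.37 and 8.49 in water mice, 8.10, 8.49 and 8.29 at 1 day, and 8.38, 8.22 and 8.17 at 10 days. Neurod6 measured 7.56 and 7.76 in water mice, 7.32, 8.05 and 7.78 at 1 day, and 7.76, 7.54 and 7.82 at 10 days. Both genes had their lowest value of the 8 arrays in trehalose 1 day replicate 1 and their highest in trehalose 1 day replicate 2, and for Neurod6 these differed by 0.728 on the log2 scale. The authors' deposited table had its lowest and highest Neurod6 intensities in the same mice, at 40.6 and 86.4, against 56.95 and 62.9 in the water mice. Neurod2 was -0.14 (SE 0.11) at 1 day and -0.17 (SE 0.11) at 10 days against control, and Neurod6 0.06 (SE 0.19) and 0.05 (SE 0.19), with adjusted p = 1 for each by limma. The sign for Neurod6 rested on single arrays: without control replicate 1 it was -0.05 at both times, and without trehalose 1 day replicate 2 it was -0.11 at 1 day.

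Of the layer genes, Tbr1 was even in water mice and spread in the others. It measured 8.33 and 8.29 in water mice, 8.33, 8.11 and 8.00 at 1 day, and 8.32, 8.21 and 8.02 at 10 days. In each trehalose group the highest mouse reached the water level and the other two lay below it. In all 3 groups the highest mouse was replicate 1. The changes against control were -0.16 (SE 0.11) at 1 day and -0.13 (SE 0.11) at 10 days. Trehalose 1 day replicate 1, the lowest array for Neurod2 and Neurod6, was the highest for Tbr1.

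Fezf2 was the most variable layer gene. It measured 7.67 and 7.96 in water mice, 7.60, 7.95 and 8.04 at 1 day, and 7.41, 7.83 and 7.93 at 10 days. All 3 groups overlapped, and the lowest mouse of each, replicate 1 every time, lay at least 0.29 below the next on the log2 scale. The labels do not say that equal numbers mark related mice. Each sample's description holds a further number, which follows the replicates. It was 1 to 3 for replicate 1 of the groups, 4 to 6 for replicate 2, and 7 and 8 for replicate 3. What this description number stands for is not stated. Its changes were 0.05 (SE 0.18) at 1 day and -0.09 (SE 0.18) at 10 days.

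Rorb and Cux2 varied least among the layer genes. Rorb measured 7.28 and 7.37 in water mice, 7.33, 7.25 and 7.32 at 1 day, and 7.51, 7.42 and 7.28 at 10 days, where 2 of 3 mice lay above both water mice. Its changes were -0.02 (SE 0.07) at 1 day and 0.08 (SE 0.07) at 10 days. Cux2 measured 6.199 and 6.196 in water mice, 6.18, 6.17 and 6.24 at 1 day, and 6.14, 6.19 and 6.16 at 10 days. Its 10-day mice all lay below the water mice, by 0.03 on average (SE 0.04), but this probe is close to the blanks and its log2 scale is compressed. With the blank mean subtracted the Cux2 change at 10 days was -0.13. None of the 4 layer genes passed the limma test at either time (adjusted p = 1 for each).

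**Figure D2:**
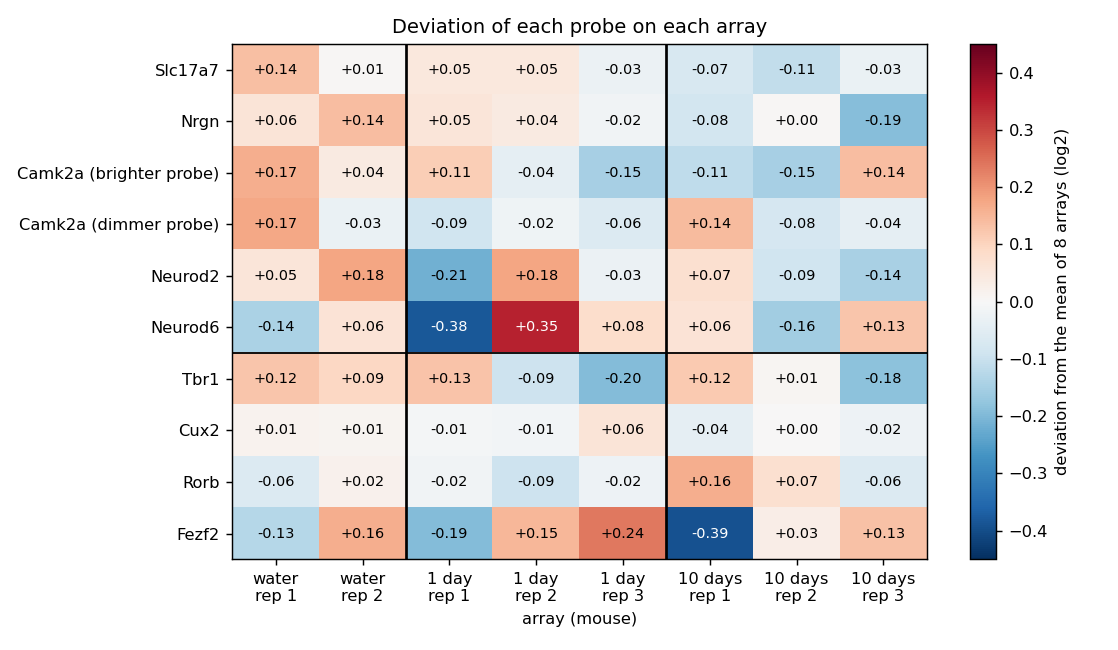
Deviation of each probe (rows) on each array (columns) from its mean over the 8 arrays, on the log2 scale, with red above and blue below; vertical lines part the groups and the horizontal line parts pan-excitatory genes (above) from layer genes. The deepest colours are Neurod6 at -0.38 and 0.35 in trehalose 1 day replicates 1 and 2, and Fezf2 at -0.39 in trehalose 10 days replicate 1.

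The members differed in how far mice of the same group spread, as the plot of deviations by array shows. The residual SD within groups was 0.259 for Neurod6 and 0.245 for Fezf2, which lie at the 98.9th and 98.6th percentile of the tested probes. Neurod2, Tbr1 and the brighter Camk2a probe followed, with SDs of 0.148, 0.143 and 0.135. Slc17a7 (0.055) and Nrgn (0.072) were close to the median of all probes, 0.064, and Cux2 had 0.028. The 3 transcription factors with the largest spread, Neurod6, Fezf2 and Neurod2, lay above the blank limit in every mouse. They had the widest intervals of the 9 genes.

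The first comparison, 1 day of trehalose against water, asked what the first day changed. Of the 10 member probes, 8 were lower and 2 higher, with a median log2 change of -0.06 and a range of -0.16 (Tbr1) to 0.06 (Neurod6). Over all 21583 tested probes 50.2% were lower and the median was -0.0003. No member passed an adjusted p of 0.05 by limma, as did 0% of all probes. None had an unadjusted p under 0.05, against 3.65% of all probes. The groups were apart, with trehalose lower, for 1 of 10 probes (Nrgn), against 9.19% of all probes, and with trehalose higher for 0, against 8.97%. The pan-excitatory probes had a median of -0.10 over 6 probes and the layer probes one of -0.01 over 4.

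The second comparison, 10 days of trehalose against the same water mice, asked what longer intake changed. Again 8 member probes were lower and 2 higher (Rorb and Neurod6), with a median of -0.11 and a range of -0.19 (Nrgn) to 0.08 (Rorb), where 51.4% of all probes were lower and their median was -0.0017. Since both comparisons use the same 2 control mice, their counts are not separate evidence. No member passed by limma, as did 0% of all probes, and 2 of 10 (Slc17a7 and Nrgn) had an unadjusted p under 0.05, against 2.00% of all probes. That count depended on the processing: it was 0 with the blank mean subtracted, in the authors' deposited table and with trend and robust variances. It was 1 with the local background column, with median scaling and without control replicate 1, control replicate 2 or trehalose 10 days replicate 2. It was 4 without trehalose 10 days replicate 3. The groups were apart with trehalose lower for 3 probes (Slc17a7, Nrgn and Cux2), against 6.97% of all probes, and with trehalose higher for 0, against 6.46%. These shares are descriptions of 10 probes chosen as a group, with earlier results of these data known.

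The third comparison set 10 days against 1 day. Here 7 member probes were lower and 3 higher, with a median of -0.02, where 51.4% of all probes were lower. Nrgn stood at -0.12 (SE 0.05), and Slc17a7 at -0.09 (SE 0.05). Rorb stood highest at 0.10 (SE 0.06) and Fezf2 lowest at -0.14 (SE 0.16). No member passed by limma (adjusted p = 0.9997 for each), as did 0% of all probes, and none had an unadjusted p under 0.05, against 3.50%. Only Slc17a7 was lower in every 10-day mouse than in every 1-day mouse, where 4.39% of all probes were, and 0 members were higher in this way, against 4.00%. In the authors' deposited values the Slc17a7 change between the times was -0.01 and that of Nrgn -0.05.

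**Figure D3:**
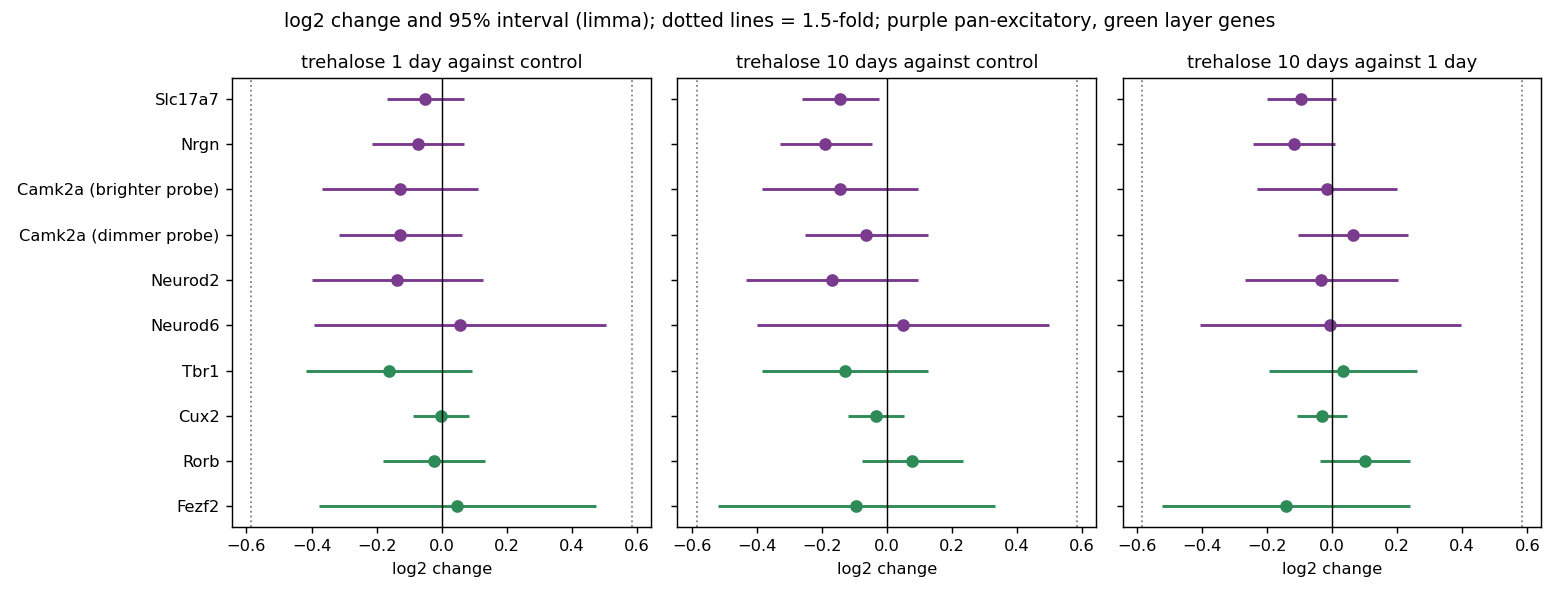
Log2 change (points) with its 95% interval (lines) for the 10 probes in the 3 comparisons, from 1 limma fit of 8 arrays, with pan-excitatory genes in purple and layer genes in green. All intervals lie inside the dotted lines at 1.5-fold, and those of Slc17a7 and Nrgn at 10 days against control leave 0 outside before adjustment.

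The intervals bound how large a change these arrays allow under the main processing, and do not cover the choice of background. In each of the 3 comparisons the 95% interval of all 10 member probes stayed within 1.5-fold in either direction (0.585 on the log2 scale), as did 98.7%, 98.9% and 99.0% of all probes. Neurod6 had the widest interval in each comparison, from -0.399 to 0.499 at 10 days against control. The lowest bound was that of Fezf2 between the times, -0.522, or a level of 0.696 times that at 1 day. For Slc17a7 at 10 days the interval ran from 0.834 to 0.983 times control and for Nrgn from 0.795 to 0.968 times. With the local background column subtracted, Slc17a7 stood at -0.689 at 1 day and -0.607 at 10 days against control. Both lay beyond 1.5-fold and outside its intervals. For the dim probes of Cux2 and Camk2a the interval is on the compressed scale and bounds less. To a lesser degree the offset also compresses Neurod6, Fezf2 and Rorb, read at 4.38 to 8.38 times the blank mean. How far their staying within 1.5-fold rests on the offset was not tested.

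Other excitatory genes were lower for most probes against control and higher for most between the times. In the list of other pan-excitatory and cortical projection genes, 18 probes were tested and 0 passed in any comparison. At 1 day 13 were lower and 5 higher (median -0.07), at 10 days 11 and 7 (median -0.03), and between the times 7 and 11 (median 0.04). Chn1, a Rac GTPase-activating protein of forebrain neurons, measured 10.92 ± 0.14 in water mice (SD, n = 2), 10.57 ± 0.11 at 1 day and 10.60 ± 0.23 at 10 days (SD, n = 3 each). Mef2c, a transcription factor of cortical neurons, measured 10.69 ± 0.02 in water mice, 10.40 ± 0.13 at 1 day and 10.65 ± 0.17 at 10 days. Ppp3ca, the catalytic subunit of the phosphatase calcineurin, had a change of -0.23 at 1 day and 0.22 (SE 0.075) between the times. Slc17a6, the glutamate transporter VGLUT2 that is abundant in thalamic neurons and is also on the thalamus list, had positive changes of 0.52 (SE 0.12) at 1 day and 0.35 (SE 0.12) at 10 days, where its relative Slc17a7 had negative ones. None of these had an adjusted limma p under 0.9997.

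The lists of layer genes showed small medians. Of 21 tested probes of layers 2 to 4, 17 were lower at 1 day (median -0.01) and 17 at 10 days (median -0.02), with 0 passing. Pou3f1, a POU-domain factor of upper layers and some layer 5 neurons, measured 8.46 ± 0.07 in water mice (SD, n = 2), 8.25 ± 0.01 at 1 day and 8.38 ± 0.08 at 10 days (SD, n = 3 each). Of 16 layer 5 probes 7 were lower at each time, and of 19 layer 6 and 6b probes 13 were lower at 1 day and 12 at 10 days. Their medians lay between -0.03 and 0.01. Zfpm2, a zinc-finger cofactor of layer 6 neurons, had a change of 0.20 (SE 0.05) at 1 day and 0.10 (SE 0.05) at 10 days. Kcnab1, a brighter probe of the same list, went the other way, with -0.204 (SE 0.089) at 1 day and -0.019 at 10 days. Npr3, a natriuretic peptide receptor gene on the layer 5 list, had 0.08 (SE 0.03) and 0.02. Npr3 was read at only 1.212 to 1.397 times the blank mean and Zfpm2 at 2.136 to 2.638 times. Both are close to the blanks, where the log2 scale is compressed. Rprm, expressed in layer 6, had -0.21 (SE 0.12) at 10 days, and neither it nor the others passed by limma (adjusted p = 1 for each against control).

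Genes of all neurons had medians near 0. Of 17 pan-neuronal probes 10 were higher and 7 lower at each time against control, with medians of 0.01 at 1 day and 0.006 at 10 days, and 0 passed. Elavl4, an RNA-binding protein of neurons, had a change of -0.26 (SE 0.07) at 1 day on 1 probe and 0.03 on its other. The related Elavl3 had -0.14 (SE 0.04) at 10 days on 1 probe and 0.04 on its other, so the probes of both genes disagreed. Stmn2, a microtubule regulator, had 0.11 (SE 0.04) at 1 day. Hippocampal excitatory genes, a list of 19 probes that marks a source Neurod6, Neurod2 and Slc17a7 share with cortex, had 12 higher at 1 day and 11 at 10 days, with medians of 0.01 and 0.02. On single arrays this list lay lowest where Neurod6 did, with a mean deviation of -0.143 in trehalose 1 day replicate 1, and at 0.075 in replicate 2 of that group. The pattern was not particular to this list. Oligodendrocyte markers lay lowest (-0.077) and highest (0.094) on the same arrays, and endothelial markers lowest (-0.085) in replicate 1. Other lists went the other way, such as striatum markers at 0.254 and -0.627. The part of any list in the spread of Neurod6 was not tested.

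**Figure D4:**
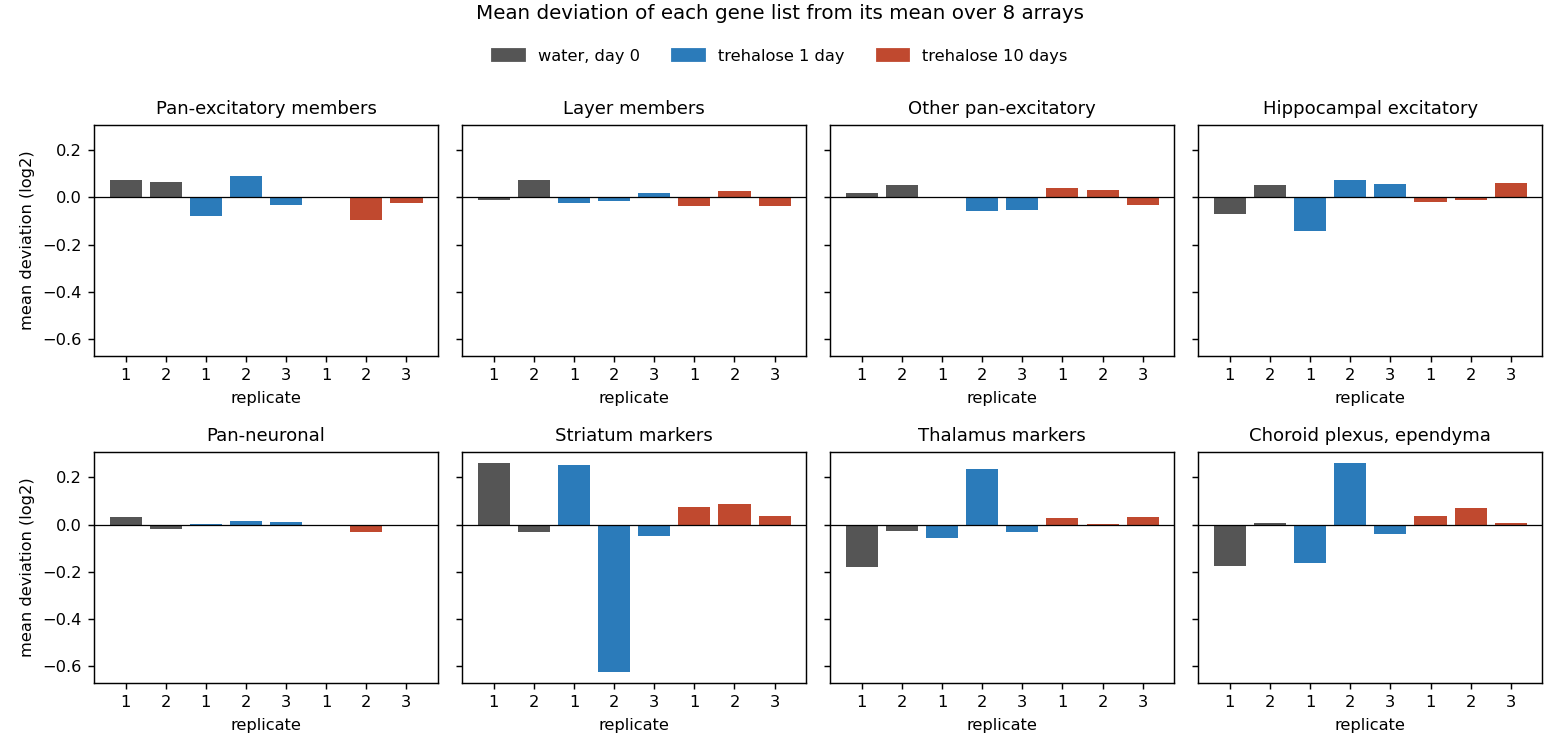
Mean deviation of 8 gene lists on each array from their mean over the 8 arrays, on the log2 scale, with water mice in grey, 1 day in blue and 10 days in red, replicates in number order. The striatum list stands at -0.627 in trehalose 1 day replicate 2, where the thalamus list stands at 0.235 and the pan-excitatory members at 0.093.

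Most markers of the striatum, thalamus and choroid plexus were on 1 side of control at 1 day, but replicate 2 stood furthest out in each list. Mean deviations of replicates 1, 2 and 3 at 1 day were 0.254, -0.627 and -0.048 for the striatum, against 0.261 and -0.033 in water mice. For the thalamus they were -0.057, 0.235 and -0.03, against -0.181 and -0.027. For choroid plexus and ependyma they were -0.164, 0.263 and -0.04, against -0.175 and 0.005. At 1 day against control 14 of 15 striatum probes were lower (median -0.28) and 15 of 19 thalamus probes higher (median 0.15), and at 10 days 9 of 15 were lower (median -0.05) and 16 of 19 higher (median 0.11). The summed intensity of the striatum list was 9165 and 12852 in water mice, 4940 to 12664 at 1 day and 9540 to 10367 at 10 days. That of the thalamus list was 3893 and 4503 in water mice, 4437 to 6008 at 1 day and 4687 to 4974 at 10 days, and its defining marker Tcf7l2 was not above the blank limit on any array. Choroid plexus and ependyma probes were higher for 7 of 8 at 1 day and 8 of 8 at 10 days, with summed intensities of 26077 and 30518 in water mice, 24976 to 33829 at 1 day and 30503 to 30560 at 10 days. The narrow range at 10 days goes with Ttr, whose normalized value was the same in all 3 mice (SD 0). Quantile normalization gives probes of equal rank the same value on each array, so this does not show equal Ttr levels. Before normalization Ttr ranged from 845.3 to 1283 times the blank mean over the 8 arrays. No probe of these lists passed by limma, and their part in the values of the excitatory genes was not tested. Without trehalose 1 day replicate 2, the array with the least striatum signal, the member median at 1 day was -0.095.

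Of the non-neuronal lists, astrocyte, oligodendrocyte, microglia and endothelial markers had medians of -0.04, 0.002, -0.05 and -0.05 at 1 day. At 10 days they had 0.02, 0.02, -0.04 and 0.009, over 13, 13, 11 and 10 probes. At 1 day 9, 6, 8 and 8 of these probes were lower, and at 10 days 5, 5, 9 and 5. Lower values for most probes were thus not limited to the excitatory members, of which 8 of 10 were lower at each time. Interneuron markers, over 17 probes, had -0.08 at 1 day and -0.04 at 10 days. Of these 17 probes 12 were lower at 1 day and 10 at 10 days. Calb2, also on the thalamus list, had 0.459 (SE 0.155) at 1 day, and Gad2, a GABA-synthesis enzyme, -0.25 (SE 0.10). Dlx5, an interneuron transcription factor, had 0.19 (SE 0.06) at 10 days. Gad2 and Dlx5 each had another probe, which is not described here. Hypothalamus markers were higher for 7 of 8 probes at 1 day (median 0.13) and 5 of 8 at 10 days, and cerebellum markers for 3 and 4 of 9. None of these probes passed by limma (adjusted p = 1 for each against control).

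The genes whose pattern over the 8 arrays was most like the mean of the members were picked by Pearson's r among 9314 named probes brighter than the median. They were Rfc2 (r = 0.89), Gabrb1 (0.88), Ube2ql1 (0.86), Coasy (0.85) and Lrrc4 (0.85). Gabrb1 encodes a GABA-A receptor subunit, Lrrc4 a postsynaptic adhesion protein and Rfc2 a replication factor subunit. The most opposite were H2-DMa (r = -0.92), Cdk2ap2 (-0.91), Ak3 (-0.91), Josd1 (-0.90) and Pibf1 (-0.90). Each value is the extreme of 9314 over only 8 arrays that share the groups and the normalization, and describes likeness only.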

How the data were processed

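RNA of 8 mouse brains was measured on 1-colour arrays. Per the file headers, the deposited scanner files hold a spot median intensity of the Cy5 channel, joined from 3 gains, with a local background intensity and flags. A further deposited table holds linear processed intensity values from the authors; its steps are not given in the sources used here, each column has a median of 25, and 1502 to 2763 probes per array have no value there, none of them a member. Per the labels' protocols, RNA was extracted with Trizol, amplified and coupled to dye.

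Spot medians were corrected by normexp with an offset of 50 (limma 3.58.1, R 4.3.3), 10 flagged probe spots were dropped, and arrays were quantile normalized on the log2 scale. The local background column correlated with the spots themselves (r of 0.936 to 0.983 across probes) and was left out. Probes above the blank mean plus 2 SD on at least 2 arrays were tested, 21583 in all. One limma fit held all 8 arrays and 3 groups (5 residual degrees of freedom), with Benjamini-Hochberg adjustment over all tested probes. Precision is limited by having 2 or 3 arrays per group. The procedure was tested on simulated data. Members, gene lists and settings were chosen with earlier results of these data known. All member probes are named. From each other list the rule took the 2 probes with the lowest p per comparison, and the text names some of these. It also took the 5 probes most like and most opposite to the member mean. Symbols came from the platform annotation, updated by gene identifier, and promoter windows from RefSeq, GRCm38.p6, for 8 of the 9 genes. Other backgrounds, scalings, filters, variance models, blocks and left-out arrays were tried.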

Additional observations from a re-analysis of the deposited data

How the results depend on the processing

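No member probe passed the limma threshold under any of the 17 other settings, the smallest adjusted p being 0.5526 (Fezf2 between the times, local background column). Counts over all probes moved from 0 to 1 (Il1rl2, named after its values were seen) at 10 days against control and between the times, both with the blank mean subtracted and with trend and robust variances. They ranged from 0 to 2 when 1 array was left out, at 1 day and at 10 days against control, with the 2 (Ifitm3 and Sult4a1, also named after the fact) called without control replicate 1, where the lone control is assumed to vary like the other groups, and stayed at 0 between the times. Members at an unadjusted limma p under 0.05 numbered 0 to 1 at 1 day, 0 to 4 at 10 days (3 with the replicate block) and 0 to 2 between the times over all settings. The member median at 1 day (-0.061) was -0.038 with the local background column and -0.11 in the authors' table, and -0.095 to -0.045 with 1 array left out. At 10 days (-0.111) it was -0.154 with the blank mean subtracted and -0.126 to -0.08 with 1 array left out. Between the times (-0.024) it was 0.034 with the local background column, 0.056 in the authors' table, and -0.062 to 0.003 with 1 array left out. In the authors' table the median of all probes was itself -0.055, 0.024 and 0.08 in these comparisons.

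Some members turned sign, and the causes were not tested. With the local background column at 1 day Nrgn was 0.224, the brighter Camk2a probe 0.357, Neurod6 -0.14 and Rorb 0.056; at 10 days Nrgn was 0.18, Neurod6 -0.206 and Tbr1 0.303; between the times Slc17a7 was 0.081 and Neurod2 0.384. In the authors' table Fezf2 was -0.001 at 1 day, and between the times the brighter Camk2a probe was 0.068, Neurod2 0.045 and Neurod6 0.092. Neurod6 between the times was 0.005 with the blank mean subtracted and with array weights. Cux2 at 1 day was 0.001 with the description number as a covariate. With the replicate block, Rorb was 0.001 and Fezf2 -0.047 at 1 day; Tbr1 moved to -0.086 at 1 day and -0.051 at 10 days, and Fezf2 to -0.189 at 10 days. The block changed no call. The labels do not say that the numbers pair mice, and 1 of 7 same-numbered pairs was not positive. The 7 pairs are not separate evidence, since deviations from a group mean cancel out within each group. Deviations of same-numbered arrays correlated at 0.263 and 0.19 (1 day with control), 0.23 and 0.236 (10 days with control) and 0.222, -0.025 and 0.12 (10 days with 1 day), with replicate 2 at 10 days closer to replicate 3 at 1 day (0.213).

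With 1 array left out, members that turned ranged at 1 day from -0.115 to 0.016 (Slc17a7), -0.111 to 0.253 (Neurod6), -0.025 to 0.011 (Cux2), -0.064 to 0.017 (Rorb) and -0.097 to 0.193 (Fezf2). At 10 days they ranged from -0.166 to 0.04 (dimmer Camk2a probe), -0.052 to 0.151 (Neurod6) and -0.239 to 0.064 (Fezf2). Between the times they ranged from -0.105 to 0.052 (brighter Camk2a probe), -0.003 to 0.107 (dimmer probe), -0.13 to 0.067 (Neurod2), -0.204 to 0.16 (Neurod6), -0.036 to 0.126 (Tbr1) and -0.271 to 0.016 (Fezf2). Slc17a7 and Nrgn at 10 days against control kept their sign, at -0.208 to -0.078 and -0.236 to -0.138. Cux2 and the dimmer Camk2a probe, close to the blanks, are limited by signal.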
